A study of Mus musculus with 36 samples.

Results

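The major urinary protein genes of the mouse were taken as every gene whose symbol is Mup or Mup-ps followed by digits, matched to the Ensembl identifiers of the count tables through their gene symbols. By this rule 49 of the 54838 genes of the liver table were members, 22 protein-coding genes (Mup1 to Mup22) and 27 pseudogenes (Mup-ps), and the same 49 were listed in the other 5 tables. The rule reads the symbol only.

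Bulk RNA-seq counts of 36 libraries from wild-type C57BL/6 mice (C57BL/6N in the methods of the study) were available, 6 in each of 6 tables. Fathers were male mice fed from 6 weeks of age for 2 weeks on a high-fat diet (HFD, 60% of kcal from fat) or a low-fat control diet (LFD, 10%). Liver, epididymal white adipose tissue (eWAT) and gastrocnemius muscle came from mice labelled as HFD tolerant (HFDt) or HFD intolerant (HFDi), which the study defined by the glucose tolerance of male F1 offspring of fathers fed on HFD. The labels give 3 libraries of each kind per tissue and no LFD arm, and the columns of these tables do not tell HFDt from HFDi, so the 6 libraries of a tissue were treated as 1 group and their spread includes any difference between both kinds. Cauda spermatozoa and morulae had 3 libraries from HFD-fed males (or sired by them) and 3 from LFD, while the columns of the 6 round spermatid libraries do not give the diet. The labels of 3 morula samples disagree on the diet between fields, and the title and treatment were followed here. Libraries are named below by their tissue and total count.

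Major urinary proteins (MUPs) are small secreted lipocalins, barrel-shaped carriers of volatile hydrophobic molecules. In adult males they are made in bulk by hepatocytes, pass through the blood and the kidney filter and leave in the urine, where they bind and slowly release pheromones and mark individual identity. Their transcription in liver is driven by pulses of growth hormone acting through its receptor and STAT5, with androgens and glucocorticoids also needed, and it is higher in males than in females. MUP20, also called darcin, is a male pheromone in its own right, and MUP1 has been described as a circulating factor in glucose and lipid metabolism. Some members (such as Mup4 and Mup5) are known from glands of the head, as well as or in place of the liver.

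The genes formed 1 cluster. Of the 49 members, 48 lay on chromosome 4 between 59956804 and 62150863 (GRCm38), a stretch of 2194.06 kb that holds no other protein-coding gene, and Mup-ps22 lay on chromosome 11. Among the coding members 21 were on the minus strand and Mup6 alone on the plus strand. To show how alike the starts of these genes are, the stretch around a shared TATATAA is given for 5 members of high liver level or divergent sequence and for Mup6. Each window holds 57 bases, 5′ to 3′ on the strand of the gene, read from RefSeq promoters of GRCm38.p6. Capitals mark the letters TATATAA, which resemble a TATA box.
Mup11, chr4:60662371-60662427, minus strand: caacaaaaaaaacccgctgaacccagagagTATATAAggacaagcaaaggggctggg
Mup17, chr4:61595831-61595887, minus strand: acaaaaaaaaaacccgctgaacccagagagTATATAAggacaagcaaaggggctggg
Mup18, chr4:61674096-61674152, minus strand: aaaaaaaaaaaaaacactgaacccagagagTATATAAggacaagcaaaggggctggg
Mup3, chr4:62087302-62087358, minus strand: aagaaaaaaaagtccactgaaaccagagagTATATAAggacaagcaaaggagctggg
Mup21, chr4:62150823-62150879, minus strand: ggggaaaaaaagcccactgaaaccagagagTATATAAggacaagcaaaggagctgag
Mup6, chr4:60003422-60003478, plus strand: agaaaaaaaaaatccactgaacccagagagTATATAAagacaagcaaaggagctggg

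RefSeq promoters (250 bases before to 50 after the annotated start) were given for 14 of the 22 coding members. TATATAA, sought on both strands, was in 13 of these 14, all except Mup7, and in 3.24% of all 32851 promoters of that length. It began 25 to 31 bases before the RefSeq start in 9 of them, but 11, 8 and 2 bases before it in Mup3, Mup21 and Mup11 and 12 bases after it in Mup14. The 13 windows around it differed from each other at 0 to 12 of 57 bases, with Mup2 the same as Mup17 and Mup15 the same as Mup19, Mup11 and Mup17 differing at 3 bases and Mup3 and Mup11 at 8. The letters TTCNNNGAA, the core of a STAT site, were in 0 of the 14 and in 8.3% of all promoters. For ACANNNTGT, the core of a glucocorticoid receptor site, these values were 0 of 14 and 6.85%. Both absences concern these 300-base windows only.

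In liver the members together took 0.436% to 1.498% of all counts. By library, the share was 0.937% (total 2036237), 1.34% (2038532), 0.436% (2225011), 1.45% (2279651), 1.498% (2347546) and 1.46% (2552454), with a mean of 1.19% ± 0.422 (SD, n = 6). The 3 libraries of highest depth lay close together, whereas the library of 2225011 counts fell below all others. These shares rest on 9703 to 37274 Mup counts per library, and their exact 95% binomial intervals reach at most 0.0158 percentage points to either side. Intervals and limits given here cover counting error only. The summed counts of 10 hepatocyte markers were not low in the library of 2225011 counts, where they reached 91879 CPM (counts per 1000000 counts of the library) against 63338 to 90507 CPM in the other 5.

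**Figure D1:**
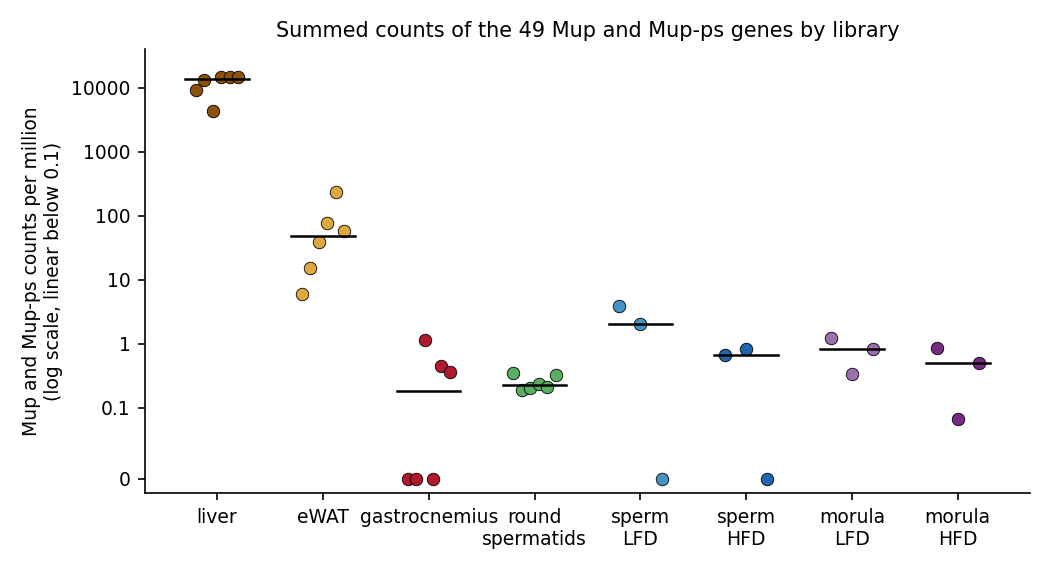
Summed counts of the 49 Mup and Mup-ps genes in CPM of the library (vertical axis, logarithmic above 0.1 and linear below) for each of the 36 libraries, grouped by tissue and, for sperm and morula, by diet. Points are libraries and bars are medians, 13950 CPM in liver, 48.4 CPM in eWAT and under 3 CPM in every other group.

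Outside liver the level dropped by orders of magnitude. The 6 eWAT libraries had 8, 27, 130, 276, 897 and 233 Mup counts (5.98, 15.5, 39.3, 78.6, 239 and 57.5 CPM, in the order of their totals from 1338149 to 4055537). None of them reached the lowest liver library at 4361 CPM. The 6 gastrocnemius libraries together held 4 Mup counts in 9850922, and the round spermatid libraries 4 to 10 each in totals of 20138842 to 31056066. The labels were checked against marker genes: adipocyte markers summed to 15433 to 30518 CPM in eWAT, muscle markers to 80106 to 127487 CPM in gastrocnemius, haploid germ cell markers to 7159 to 9319 CPM in round spermatids and morula markers to 1544 to 2175 CPM in morulae. Sperm libraries had 2472 to 5213 CPM of haploid germ cell markers, and in 3 of 6 of them the markers of epididymal epithelium were higher still (2880, 8527 and 24986 CPM).

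Within liver, 5 genes held 93.9% of the Mup counts (90.4% to 96.2% by library). The libraries of liver, eWAT and gastrocnemius were made from the 3′ ends of mRNA, so a count stands for a transcript end, and levels are given in CPM with the value per kilobase of the annotated exons beside the mean. Mup11 had 2398, 3550, 578, 5125, 5994 and 5314 CPM in the libraries in order of their totals, a mean of 3826 ± 2063 CPM (SD, n = 6) or 2428 CPM per kb. It ranked 30 among all genes in liver by mean CPM. Mup3 had 2050, 2740, 2062, 3440, 2813 and 3290 CPM, a mean of 2732 ± 588 CPM or 2558 CPM per kb. Mup11 was above Mup3 by CPM in 5 of 6 libraries, all but that of 2225011 counts, so their order was not the same throughout. Per kb it was above in 3 of 6, but a count of transcript ends does not call for division by length.

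Mup18 followed with 2408, 2752, 1008, 2155, 2489 and 2162 CPM (mean 2162 ± 608 CPM, 2325 CPM per kb). Mup12 had 1552, 2103, 230, 1960, 1891 and 1764 CPM (mean 1583 ± 689 CPM, 1710 CPM per kb). Both were steady across 5 libraries and low in the library of 2225011 counts. Mup17 had 344, 970, 156, 1036, 1226 and 1221 CPM (mean 826 ± 461 CPM, 891 CPM per kb). It was low in 2 libraries, those of 2036237 and 2225011 counts. Mup18 was above Mup12, and Mup12 above Mup17, in 6 of 6 libraries, although the ranges of each pair of neighbours overlapped.

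A second tier of 9 coding members lay between 6.70 and 211 CPM. Mup1 had 216, 463, 49.4, 197, 134 and 210 CPM, with a mean of 211 ± 138 CPM. The means of Mup6, Mup21 and Mup10 were 98.4 ± 32.4, 93.4 ± 39.2 and 68.2 ± 32.7 CPM. Mup20, the gene of darcin, had 25.5, 33.8, 38.2, 96.9, 72.0 and 78.7 CPM, a mean of 57.5 ± 28.9 CPM. It fell into 3 lower and 3 higher libraries, the lower ones being those of lowest total counts. Mup11 was lower and higher in the same libraries. Not all members split so, as Mup1, Mup5, Mup10 and Mup21 were highest in the library of 2038532 counts. Mup4 had a mean of 57.3 ± 27.5 CPM and Mup5 of 43.1 ± 24.9 CPM. Mup2 and Mup8 closed the tier at 13.4 ± 5.88 and 6.70 ± 4.35 CPM. Along this tier the ranges of all neighbours overlapped, and Mup6 was above Mup21 in only 2 of 6 libraries.

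Pseudogenes contributed 1182 of the 161604 liver Mup counts, 0.731%. Mup-ps18, Mup-ps17 and Mup-ps20 had means of 35.8 ± 11.0, 32.8 ± 15.7 and 17.7 ± 8.87 CPM, above the coding gene Mup2. The other 32 members, 8 coding and 24 pseudogenes, had 50 counts in all in liver and at most 6 in any library. Among these, Mup-ps21 was the highest with a mean of 0.991 CPM, and the coding Mup15 and Mup16 were at 0 in every liver library. In liver 21 members were at 0 in all 6 libraries, and 18 at 0 in all libraries of all tables, where a count of 0 in a liver library allows up to 1.18 to 1.47 CPM.

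**Figure D2:**
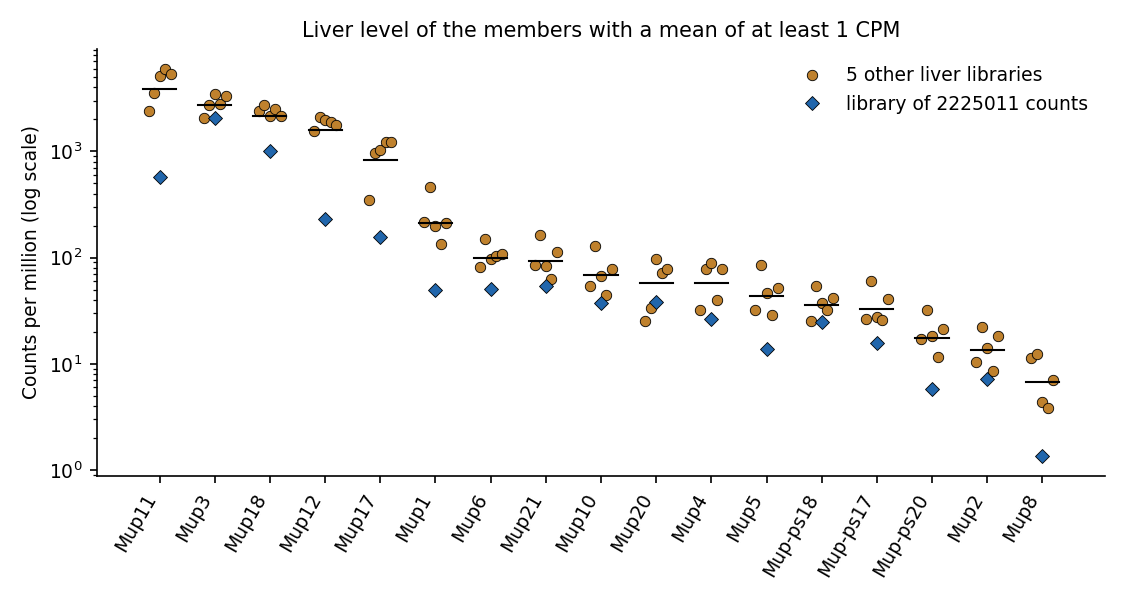
CPM (logarithmic axis) of the 17 members with a mean of at least 1 CPM in liver, ordered by mean (bar). Circles are 5 libraries and the diamond is the library of 2225011 counts, which is the lowest for 15 of the 17 members but not for Mup3 or Mup20.

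The low library did not lower all members alike. Mup3, at 2062 CPM there, lay within the range of the other libraries (2050 to 3440 CPM). Mup12 was at 230 CPM against 1552 to 2103, Mup11 at 578 against 2398 to 5994, Mup1 at 49.4 against 134 to 463, Mup17 at 156 against 344 to 1226, Mup18 at 1008 against 2155 to 2752 and Mup5 at 13.9 against 28.5 to 85.8 CPM. These 6 of the 16 members with a mean of at least 10 CPM were under 1/2 of the next-lowest library. Of all 5907 genes at that level, 23 (0.389%) were so in this library. It was the lowest library for 14 of the 16 members and for 11.1% of the 5907 genes. As a result Mup3 made up 47.3% of its Mup counts against 18.8% to 23.7% elsewhere, and Mup11 13.2% against 25.6% to 40.0%. This library was singled out by its low summed Mup share, so low values of members in it were partly built into that choice. The shares of all genes set beside them are therefore no test. Mup1, Mup11, Mup12, Mup17 and Mup18 are also near-identical in coding sequence, so they need not be separate observations.

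**Figure D3:**
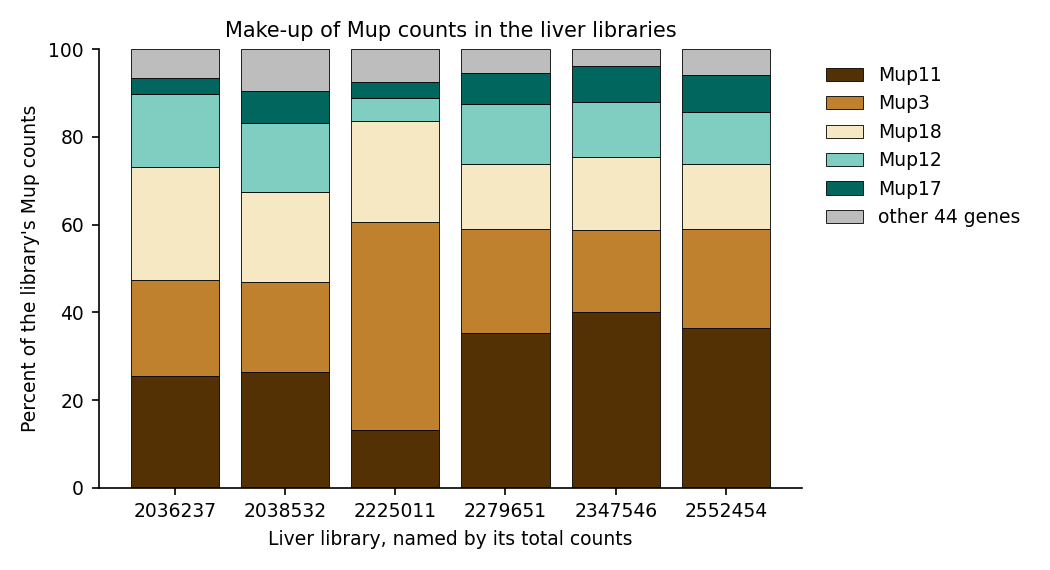
Percent of the Mup counts of each liver library (horizontal axis, named by total count) that fell on each of the 5 highest genes and on the other 44. Mup3 takes 47.3% in the library of 2225011 counts and at most 23.7% in the others, and Mup11 takes 13.2% there and 25.6% to 40.0% in the others.

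Expression varied more between liver libraries for these genes than for most. The coefficient of variation over the 6 liver libraries had a median of 47.8% over the 16 members with a mean of at least 10 CPM (21.5% for Mup3 to 65.4% for Mup1) against 22.4% over all 5907 genes at that level. It was above that all-gene median for 15 of the 16. Without the library of 2225011 counts these medians were 37.7% and 22.5%. For the 4 members above 1000 CPM the median was 35.8% against 21.1% over 93 genes, and without that library 15.1% against 20.1%. Among these 4, Mup11 still varied by 32.8% without it, Mup3 by 19.0%, Mup12 by 11.2% and Mup18 by 10.4%. Levels of RNA per cell and numbers of expressing cells cannot be told apart in bulk tissue.

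Because the members are near-copies, the sequence behind each count was examined. The coding sequences of 12 genes (Mup1, Mup2, Mup10, Mup11, Mup12, Mup14 to Mup19 and Mup22) were at least 98.5% identical to each other, and these 12 genes held 73.3% of the liver Mup counts. Mup11 and Mup18 differed at 1 of 543 bases. Mup7, Mup8, Mup9 and Mup13 formed a second group with a longer annotated coding sequence (705 bases) and 0.0625% of the counts. Mup3, Mup4, Mup5, Mup6, Mup20 and Mup21 stood singly, with Mup3 nearest to Mup21 at 94.9% identity and holding 23.01% of the counts. No pair among the 231 was identical throughout.

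The 50-bp reads come from near the transcript end, so the last 300 bases of each representative transcript were cut into all 50-base words and compared with the transcripts of all other genes. For 10 coding members (Mup1, Mup2, Mup7, Mup8, Mup10, Mup13, Mup14, Mup15, Mup19 and Mup22) none of the words was unique to the gene. Together these had 2.47% of the liver Mup counts, at 0 to 211 CPM. The 12 members with some unique words had 96.8%, at 0 to 3826 CPM. Mup6 (100% unique), Mup3 (93.6%), Mup20 (91.2%), Mup21 (82.1%) and Mup4 (74.1%) were the most distinct. The share was 56.6% for Mup17, 38.6% for Mup11, 19.9% for Mup18 and 17.9% for Mup12. How reads that match several genes were counted is not given in the sources used here, so the split of counts among the 12 near-identical genes is uncertain and the levels of the 10 without a unique word cannot be taken as their own expression. The sum over all members also depends on whether such reads were dropped, counted once or counted for each gene they match.

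**Figure D4:**
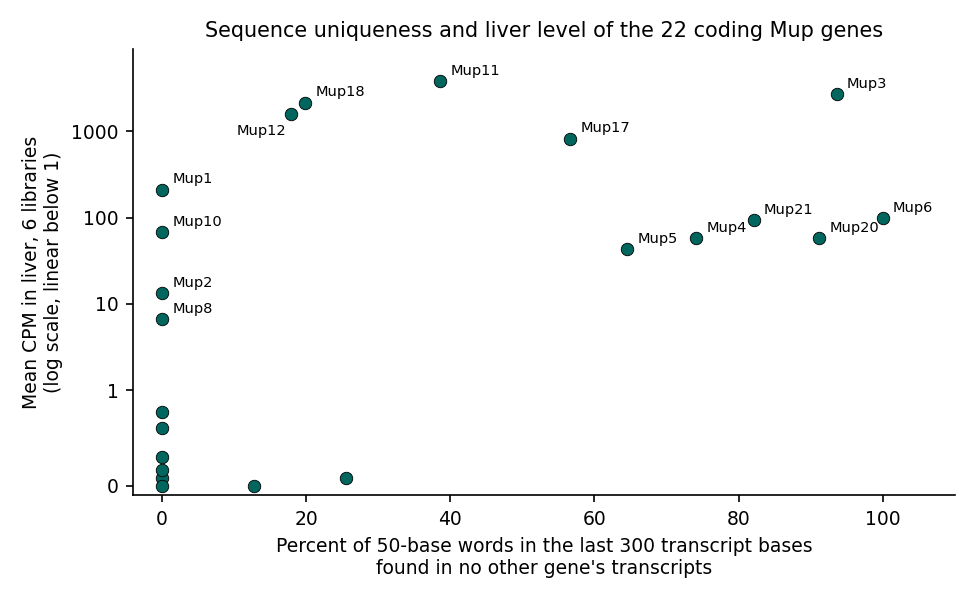
For the 22 coding members, the percent of 50-base words in the last 300 transcript bases found in no other gene (horizontal axis) and the mean CPM over 6 liver libraries (vertical axis, logarithmic above 1 and linear below). Members at 0% reach at most 211 CPM (Mup1), whereas Mup11, Mup3, Mup18 and Mup12 exceed 1000 CPM with 17.9% to 93.6% unique words.

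Liver was then compared with eWAT and gastrocnemius, tissues of the same design and library kit that were deposited in separate tables, so tissue and table cannot be told apart. The summed Mup counts were higher in liver than in eWAT by 8.23 ± 0.73 on the log2 scale (SE, edgeR quasi-likelihood test, adjusted p = 8.65e-10) and higher than in gastrocnemius by 14.65 ± 1.02 (adjusted p = 1.17e-11). Without the eWAT library of 3757456 counts the first difference was 9.15, and without the gastrocnemius library of 1775036 counts the second was 15.31. In 6 of 6 liver libraries the sum was above all 12 libraries of the other tissues. Of pooled CPM without further scaling, the ratio of liver to eWAT was 135 (95% interval 129 to 142) and that of liver to gastrocnemius 29526 (11531 to 108365). The fitted values use TMM scaling, and with library totals the median log2 difference of all genes moved by -0.94 for liver over eWAT and by 0.98 for eWAT over gastrocnemius. That choice also turned the split of calls over all genes for liver over eWAT from 3138 higher and 3544 lower to 1388 and 7062, and for eWAT over gastrocnemius from 4464 and 2854 to 7413 and 1204.

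Of single members, 16 passed the filter on low counts, which they did through their liver libraries, so that a difference was built into their selection. All 16 were called higher in liver than in eWAT and than in gastrocnemius, which is given as a description. Of all genes, 28.9% of the 10851 tested were called higher in liver than in eWAT (61.6% in either direction) and 34.9% higher than in gastrocnemius (66.4% in either direction). Over eWAT, Mup3 rose by 8.69 ± 0.66, Mup12 by 8.26 ± 0.65, Mup17 by 8.07 ± 0.70, Mup18 by 8.03 ± 0.57 and Mup11 by 7.89 ± 0.74 on the log2 scale (SE, adjusted p at most 8.98e-09, edgeR). These 5 values lie between 7.89 and 8.69, with overlapping error ranges. Without the eWAT library of 3757456 counts the differences of Mup3, Mup12, Mup17, Mup18 and Mup11 were larger, at 9.38, 9.21, 8.88, 8.76 and 8.76. Mup2 and Mup-ps18 had 0 counts in the eWAT libraries and were at least 79.3-fold and 211-fold higher in liver, taking 3 counts over the group as the limit for eWAT. In gastrocnemius only Mup11, Mup12 and Mup18 had counts (1, 2 and 1), giving for Mup12 a ratio of 7810 (95% interval 2160 to 64500). Mup3, Mup17 and Mup1 were at 0 there and were at least 8970-fold, 2710-fold and 694-fold higher in liver.

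In eWAT the same members led. Of 1571 eWAT Mup counts Mup11 took 40.7%, Mup18 20.3%, Mup3 16.2%, Mup12 12.3% and Mup17 7.13%, together 96.7% against 93.9% in liver. The library of 3757456 counts held 897 of these counts, and the order differed between libraries, as with 56 counts for Mup3 and 47 for Mup18 in the library of 4055537 counts. Of the 16 members tested, these 5 were called higher in eWAT than in gastrocnemius and the others were not called. The differences of the 5 were 4.39 ± 1.21 (Mup12) to 7.38 ± 1.59 (Mup3) on the log2 scale (SE, adjusted p at most 0.0140, edgeR). Of all genes tested, 41.1% were called higher and 67.4% in either direction. The members had passed the filter through their liver libraries. Those not called had at most 13 counts each over all eWAT libraries and 0 in gastrocnemius. Their share of calls can therefore not be read against that of genes in general. The summed counts were higher by 6.42 ± 0.97 (adjusted p = 4.15e-06), and by 5.51 without the eWAT library of 3757456 counts. Without that library the 5 members were still called, at 3.42 (Mup12) to 6.56 (Mup3), and without the gastrocnemius library of 1775036 counts the sum was higher by 7.07, Mup11 by 8.71 and Mup18 by 7.75. With limma-voom 3 of the 5 remained called, and Mup12 and Mup17 had adjusted p = 0.0969 and 0.175.

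Transcripts of several other liver-secreted proteins moved with the Mup counts among the eWAT libraries. As a percent of the liver median, the summed Mup genes stood at 0.0429, 0.111, 0.282, 0.563, 1.71 and 0.412 in order of library totals. Albumin (Alb) stood at 0.0729, 0.217, 0.259, 0.331, 0.961 and 0.575, and fetuin (Ahsg) at 0.0266, 0.139, 0.230, 0.625, 1.43 and 0.604. The library of 3757456 counts was the highest and that of 1338149 counts the lowest for all 3. The log2 ratio of Mup counts to 5 such markers was compared between liver and eWAT (two-sided exact permutation test over 924 arrangements, n = 6 and 6, 5 tests). The mean difference, liver minus eWAT, was -0.09 for Alb (p = 0.855), 0.20 for Apoa1 (p = 0.621), -0.70 for Ttr (p = 0.0909), -0.46 for Fgb (p = 0.333) and -0.28 for Ahsg (p = 0.506), with adjusted p from 0.455 to 0.855 in these exact tests. So relative to these 5 of the 10 hepatocyte markers the Mup level did not differ between liver and eWAT beyond the spread. That does not show that it was equal. Ratios to the other markers were not tested. Of these, Apob, Fga and Serpina1a had 1, 1 and 0 counts in the eWAT library of 1338149 counts. The hepatocyte markers Trf and Cyp2e1, which adipose tissue also makes, were in eWAT at 34.3% to 46.8% and 30.9% to 103% of the liver median. The part of these transcripts in the Mup counts of eWAT was not tested.

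**Figure D5:**
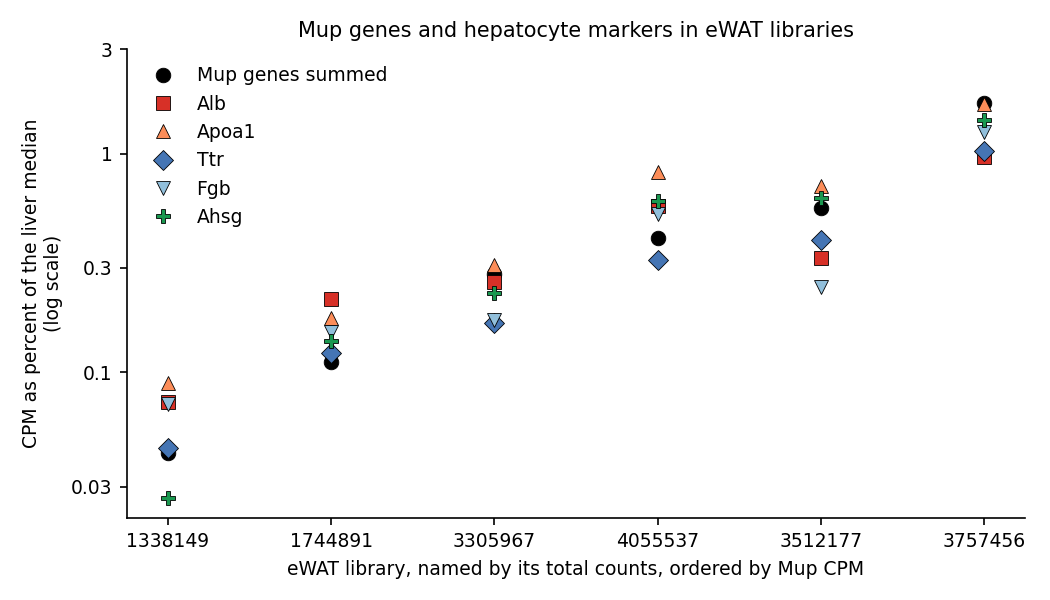
CPM in each eWAT library as a percent of the liver median (logarithmic axis) for the summed Mup genes and 5 hepatocyte markers, with libraries ordered by Mup CPM. The Mup points run from 0.0429% to 1.71%, Alb from 0.0729% to 0.961% and Ahsg from 0.0266% to 1.43%. Alb does not follow the Mup order throughout, at 0.575% in the library of 4055537 counts and 0.331% in that of 3512177. In the library of 1338149 counts the summed Mup genes rest on 8 counts, and Ahsg, Fgb and Ttr on 6, 5 and 7.

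In the paternal germline and the embryo the genes were close to undetected. HFD sperm libraries had 2, 3 and 0 Mup counts and LFD sperm libraries 10, 6 and 0, in totals of 2560219 to 4062321. Of these, 1, 2 and 0 on HFD and 8, 5 and 0 on LFD fell on the pseudogene Mup-ps23, which was at 0 in liver. Both diets had a library at 0, so the groups overlap. In order of library totals, genes encoded by mitochondrial DNA took 84.3%, 79.0% and 78.1% of all counts on HFD. On LFD they took 43.5%, 63.4% and 64.7%. Fewer counts were thus left for nuclear genes on HFD, and the totals overstate how alike the depth of the diets was. The LFD library with 8 Mup-ps23 counts was also the one with the most epididymal epithelium marker counts, 24986 CPM against 1629 to 8527 CPM in the other 5 sperm libraries. The LFD library next in these markers, at 8527 CPM, had 0 Mup-ps23 counts, and the one with 5 had 3014 CPM. The part of epididymal epithelium in the Mup counts was not tested. No member passed the filter on low counts, and 0% of the 8643 genes tested were called between the diets by edgeR. With library totals in place of TMM, edgeR called 1 gene higher and 3356 lower on HFD, again with no member among the genes tested. With all genes kept, 38 of 26903 genes were called higher and 3 lower by edgeR, and of the 5 members among them 0 were called and 0 had an unadjusted p under 0.05. Over the genes that passed the filter, limma-voom called 0 and DESeq2 called 272 higher and 23 lower on HFD, with no member among the genes tested.

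Morulae sired by HFD-fed males had 10, 1 and 6 Mup counts and those sired by LFD-fed males 14, 4 and 10, in totals of 11471251 to 12153141. Mup5 accounted for 9, 0 and 4 of them on HFD and 11, 1 and 6 on LFD. The groups overlapped, and the range within a diet was wider than the difference between the diets. Again no member passed the filter and 0% of 13447 genes were called by edgeR. DESeq2 called 5 genes higher and 13 lower on HFD and limma-voom 0, again with no member among the genes tested. Without the filter 26 of 29785 genes were called higher and 37 lower by edgeR, and of the 6 members among them 0 were called and 0 had an unadjusted p under 0.05. A difference in these genes between the diets was not detectable at this depth in either cell type.

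Round spermatids had 38 Mup counts in 150257984, with Mup-ps18 (9), Mup-ps22 (8) and Mup3 (7) most often hit. The pooled level was 0.253 CPM (95% interval 0.179 to 0.347 CPM), so that liver was 47406-fold higher (34537 to 66993). These tables come from another library kit than liver, and the values are set side by side without a test.

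Other genes of the growth hormone pathway were measured in the same liver libraries. Of 16 receptors, signal carriers and transcription factors, 14 were tested, with 3 higher and 5 lower in liver than in eWAT, where 28.9% of all genes were higher and 61.6% changed in either direction. Hnf4a, a master regulator of hepatocyte genes, was higher by 5.61 ± 0.60 on the log2 scale, Ppara, the fatty acid receptor, by 5.71 ± 0.40 and Cebpb by 2.38 ± 0.21 (SE, adjusted p at most 1.96e-08, edgeR). The growth hormone receptor Ghr was lower in liver by 1.72 ± 0.21 (206 ± 35.6 CPM in liver and 1285 ± 292 CPM in eWAT, SD, n = 6), with an adjusted p = 1.25e-07 by edgeR. Stat5b, the transducer of its signal, had a difference of -0.10 ± 0.19 (adjusted p = 0.672) under TMM, while its level relative to library totals was 54.0 ± 7.30 CPM in liver and 110 ± 28.5 CPM in eWAT, with ranges that did not overlap. The receptor transcript was thus lower in liver than in eWAT. Against gastrocnemius it was higher in liver, by 1.29 ± 0.21 on the log2 scale (SE, adjusted p = 8.92e-06, edgeR). Its level in gastrocnemius was 81.0 ± 20.2 CPM, so it did not run opposite to the Mup level in both comparisons.

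The male-biased liver genes, which share the hormonal control of the Mup genes, were broadly present. All 19 on the list had a mean of at least 1 CPM in liver, and 15 of the 15 tested were higher in liver than in eWAT, as were 28.9% of all genes tested. Serpina1e had 4840 ± 1610, Igf1 1408 ± 255, Cyp2d9 1296 ± 424 and Cyp4a12a 1108 ± 450 CPM, whereas the steroid dehydrogenase gene Hsd3b5 was at 1.94 ± 1.11 CPM. Of 16 female-biased genes, 5 reached 1 CPM, with the lipid hydroxylase gene Cyp4a14 at 6044 ± 652 and Acot3 at 58.1 ± 16.2 CPM and the others at most at 2.58 CPM. The growth hormone receptor lay within the range of the other libraries in the liver library of 2225011 counts (196.4 CPM against 152 to 250).

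In that library the growth hormone targets did not move one way. Cyp2d9 (577 CPM against 1138 to 1751 in the other 5), Cyp7b1 (71.9 against 94.0 to 181), Elovl3 (199.999 against 225 to 391) and Susd4 (28.3 against 46.5 to 66.2) were lowest there, 4 of the 15 male-biased genes with at least 10 CPM. Igf1 (1723 CPM against 1054 to 1645) and Ces2a (127 against 73.7 to 102) were highest. Socs2, a feedback inhibitor induced by the hormone, was highest as well at 53.9 CPM against 8.23 to 49.6. No test was made for a single library, and the part of any of these genes in its Mup level was not tested.

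Lipocalins outside the family were also measured. Of 20 listed, 9 reached 1 CPM in liver. Of 8 tested, 6 were higher in liver than in eWAT and 1 lower, Apod, by 7.81 on the log2 scale. Of all genes tested, 28.9% were higher and 61.6% changed in either direction. The retinol carrier Rbp4 had 3372 ± 123 CPM, a coefficient of variation of 3.63%. For the others with a mean of at least 10 CPM it was 6.0% (C8g), 16.9% (Orm3), 23.1% (Apom), 24.8% (Ambp) and 44.8% (Orm1). That of Mup3 was 21.5%. Ambp had 1487 ± 369, C8g 443 ± 26.6, Orm1 146 ± 65.5 and Apom 134 ± 31.1 CPM (SD, n = 6). Genes flanking the cluster were low, the 4 nearest coding genes (Slc46a2, Snx30, Zfp37 and Slc31a2) having liver means of 0 to 5.27 CPM.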

How the data were processed

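RNA-seq of liver, eWAT, gastrocnemius (QuantSeq 3′ libraries, 50-bp single-ended reads), round spermatids, cauda spermatozoa and morulae (Nextera, 75-bp) was analysed from 36 libraries. After trimming (BBDuk) and mapping to GRCm38 (STAR), the authors counted reads per gene by featureCounts and deposited these raw counts, with exon lengths as another column; versions and the treatment of multi-mapping reads are not given in the sources used here. CPM were computed here from library totals.

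In R 4.3.3, edgeR 4.0.16 was fitted over all genes (filterByExpr with a minimum count of 10, TMM, quasi-likelihood test, two-sided, Benjamini-Hochberg, threshold 0.05): 1 fit over the 18 libraries of liver, eWAT and gastrocnemius, 1 for sperm and 1 for morula. The study's NOISeq was not used. The SE is the log2 fold change divided by the square root of F. Summed Mup counts entered as 1 feature in place of the members. DESeq2 1.42.0 and limma 3.58.1 (voom) were alternatives, beside other scalings, no filter and leaving out each library. The scripts were tested on simulated counts. Sequences were compared with edlib 1.3.9.post1 in Python 3.11.15, figures drawn with matplotlib 3.10.9.

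Members with a mean of at least 1 CPM in liver, or 10 counts in a library of another table, were named, beside genes of lists of regulators, sex-biased genes, lipocalins and cell type markers. Members and lists were chosen with earlier results of these data known. No libraries were duplicates (chi-square per degree of freedom at least 3.50 between libraries of a group). The methods of the study give 3 mice per diet for round spermatids. For the groups tested the sources used here do not tie libraries to separate animals, so p-values measure only the spread between these samples. Exact intervals are 95%, and a count of 0 allows 3 counts.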

Additional observations from a re-analysis of the deposited data

Results flagged for a closer look

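Over 27 groups of 6 libraries tested, 7 had a highest or lowest library whose gap to the nearest other passed Dixon's 95% critical value of 0.625 of the range, where chance flags about 1 in 20 groups and the groups share libraries.

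In liver, the library of 2225011 counts was apart for Mup12, at 230 CPM with the nearest library at 1552, and for Mup18, at 1008 CPM with the nearest at 2155. Mup11, Mup17 and the summed level of liver were low in the same library without passing that criterion.

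In eWAT, the library of 3757456 counts was apart for the summed Mup genes, at 239 CPM with the nearest library at 78.6. The same held singly for Mup11 (98.7 CPM, nearest 37.0), Mup12 (31.7, nearest 8.83), Mup17 (17.03, nearest 4.68) and Mup18 (45.8, nearest 17.4). Alb, at 0.961% of its liver median, was also highest in that library, against at most 0.575% in the others.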

How the results depend on the processing

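The 16 members, selected through their liver counts, were called higher in liver under each tool and scaling and without any 1 library (range 16 to 16 in both liver comparisons). With all genes kept, 23 and 20 of 28 members were called higher than in eWAT and gastrocnemius, beside 3681 and 4561 of 29984 genes. For eWAT over gastrocnemius the count was 5 to 5 without each library in turn, 7 with library totals, 6 with all genes kept and 3 with limma-voom, which lost Mup12 and Mup17 and called 2 members lower, Mup2 and Mup-ps18, both at 0 counts in these tissues. The summed log2 differences ranged without 1 library from 7.998 to 9.15 (liver over eWAT, the highest without the eWAT library of 3757456 counts), 14.37 to 15.31 (liver over gastrocnemius) and 5.51 to 7.07 (eWAT over gastrocnemius, the lowest without the same library), and over the other settings from 7.32 to 9.33, 13.92 to 14.71 and 5.18 to 7.34. Leaving out the 2 eWAT libraries with most Alb, a setting chosen after seeing the data as was the summed feature, left counts of 16, 16 and 5. The median Mup share of liver was 1.86% without mtDNA-encoded genes in the total, 16.7% of the counts of the 10 hepatocyte markers, and 1.34% to 1.45% without each library in turn. Of the single-gene values, 400 of 400 for liver over eWAT and 123 of 125 for eWAT over gastrocnemius kept direction and call.

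For sperm a replicate block could be fitted over the column numbers that both diets share and called 2 of 8643 genes, with few degrees of freedom left. No member passed the filter in that fit or without any 1 library of sperm or morula, so their counts of 0 (range 0 to 0) say nothing about stability. No paired analysis was possible for morula or the tissues because their columns share no numbers. Depth limits the germline and morula tables, where single members had 0 to 11 counts, and the copies limit which gene a count belongs to.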

Other observations

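The eWAT library of 3512177 counts, second highest for the Mup genes, also had 68.9 CPM of haploid germ cell markers, and these markers were at 0 in all liver libraries. The lipocalin genes Ptgds and Lcn2 were at 749 and 190 CPM in that library. In the round spermatid table Mup-ps22, the member outside the cluster, had 3 counts in each of 2 libraries and was at 0 in all liver libraries. In morula, Mup5 had counts in 5 of 6 libraries while the main liver members Mup11, Mup18, Mup12 and Mup17 had none.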
